A study of Mus musculus with 17 samples.

Results

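The liver X receptors and 6 of their target genes in cholesterol export were described in liver and liver tumors of mice with and without hepatic Nogo-B receptor (NgBR, gene Nus1). The members were taken by symbol: the receptors Nr1h2 (LXR beta) and Nr1h3 (LXR alpha), the sterol exporters Abca1, Abcg1, Abcg5 and Abcg8, and the targets Mylip and Lpcat3. All 8 were listed among the 19151 genes of the high-fat diet (HFD) table and the 24233 genes of the Western diet (WD) table, and all 8 passed the filter on low counts in both. Over both tables, 24352 genes were listed. Liver-specific knockout mice are named N-LKO. After 16 weeks of HFD, 4 RNA-seq libraries were made from WT liver and 4 from N-LKO liver. Mice fed WD, which is high in fat and cholesterol, for the same time gave 3 libraries each of WT liver, N-LKO liver and tumors from N-LKO mice. All mice were male, on a C57BL6 background, and had eaten standard chow until the switch. The knockout was made with Cre under the albumin promoter and a loxP-flanked NgBR allele. The paper describes the deletion as hepatocyte-specific and names endothelial, stellate and Kupffer cells among liver cells that express NgBR. The WT genotype was not described further in the labels, and no label says from which mouse a tumor was taken or whether 2 tumors share a mouse.

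Liver X receptors are nuclear receptors that are switched on by oxysterols, the oxidized forms of cholesterol, and bind DNA together with a retinoid X receptor. When a cell holds too much sterol they raise transcription of genes that move cholesterol out of the cell or lower its uptake. Abca1 passes cholesterol and phospholipid to lipid-poor apolipoprotein A1, and Abcg1 passes sterol on to mature high-density lipoprotein (HDL). Abcg5 and Abcg8 are half-transporters that work as a pair at the canalicular membrane of the hepatocyte and secrete sterol into bile. Mylip, also called IDOL, is a ubiquitin ligase that marks the LDL receptor for degradation, and Lpcat3 is an acyltransferase that places polyunsaturated chains in membrane phospholipid.

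In GRCm38 (GENCODE M21), Nr1h2 lies on the minus strand at chr7:44549616-44553951, Nr1h3 on the minus strand at chr2:91184061-91202834 and Abca1 on the minus strand at chr4:53030787-53159895. Abcg1 is on the plus strand at chr17:31057675-31117988. Abcg5 (minus strand, chr17:84658234-84683011) and Abcg8 (plus strand, chr17:84676302-84700333) are neighbours that overlap. Mylip is on the plus strand at chr13:45389742-45412022 and Lpcat3 on the plus strand at chr6:124663027-124704418.

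The classical element bound by these receptors is a DR4, a direct repeat of the half-site AGGTCA with 4 bases between the copies. It was searched on both strands of RefSeq promoter windows of GRCm38.p6, from 250 bases before to 50 bases after the transcript start, with at most 1 mismatch in each half-site. Windows were held for 7 of the 8 members and not for Abcg1. No member window held a match, against 1.75% of 32851 windows over all genes. A looser search, chosen after this result was seen, allowed 2 mismatches in one half-site and 1 in the other, and 18.8% of windows held such a match. Among the members, Abca1 alone held one, with 51 bases between it and the start, on the strand opposite to the gene, with 2 mismatches in one half-site and 1 in the other. It is shown because Abca1 was the member called under HFD, although that call was lost in some settings. The capitals mark the match, and a link between the match and the level of Abca1 was not tested. RefSeq gives a start of Abcg8 at chr17:84683121 and another at chr17:84676302, which lies inside Abcg5. Between the former and the start of the divergent Abcg5 are 109 bases, and this stretch is shown because the ratio of the 2 genes is described further on. It held neither kind of match. A match is a description of letters and not of a bound site.
Abca1, chr4:53159917-53159992, minus strand: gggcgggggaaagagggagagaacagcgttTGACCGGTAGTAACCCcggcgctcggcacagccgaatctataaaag
Abcg5 to Abcg8, chr17:84683012-84683120, plus strand: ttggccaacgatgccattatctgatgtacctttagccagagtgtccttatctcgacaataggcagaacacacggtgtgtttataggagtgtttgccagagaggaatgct

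The total count per library ran from 9096110 to 12215784 under HFD and from 15494731 to 20200618 under WD. Values are given as CPM (counts scaled to library size) with TMM factors, which evens out differences in composition between libraries of a table. The factors ran from 0.942 to 1.053 under HFD and from 0.806 (WT replicate 2) to 1.149 (tumor replicate 2) under WD. Whether groups overlap in CPM depends on these factors. Nus1 was lower in every N-LKO library than in every WT library of its diet, at 29.4 to 38.0 against 82.5 to 96.2 CPM under HFD and at 41.7 to 51.1 against 88.2 to 98.9 CPM under WD, with tumors at 28.99 to 43.99 CPM. By edgeR the adjusted p was 0.000194 under HFD, 0.151 for N-LKO liver under WD and 0.00433 for tumor against WT liver. Hepatocyte markers dominated all groups, and no marker of any of the 7 cell types examined was at 0 in a whole group. No library of the 16 member groups of 4 stood apart by Dixon's test.

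Levels were compared between genes only per kilobase of exon, as CPM per kb. Abca1 stood at 19.3 CPM per kb in WT liver under HFD, beside Nr1h3 at 20.3, Lpcat3 at 17.3, Abcg8 at 16.9 and Abcg5 at 16.4. Within this group of genes the libraries of neighbours overlapped, except that the lowest Abca1 library (19.1) was above the highest of Lpcat3 (18.8). Nr1h2 at 4.22, Mylip at 3.04 and Abcg1 at 0.718 CPM per kb followed, each clear of the next. Nr1h3 had 1.57 to 5.53 times the count of Nr1h2 over the 17 libraries, although its exons cover 2515 bases and those of Nr1h2 3354. Under WD, Abca1 led the order in all 3 groups, at 54.3 CPM per kb in WT liver, 51.4 in N-LKO liver and 54.0 in tumor, and no library of the next gene, Abcg5, reached its range. Abcg1, Nr1h2 and Mylip closed the order in each of these groups, between 5.43 and 7.91 CPM per kb, and their libraries overlapped. Groups of the 2 diets are given side by side, since diet and table cannot be told apart.

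**Figure D1:**
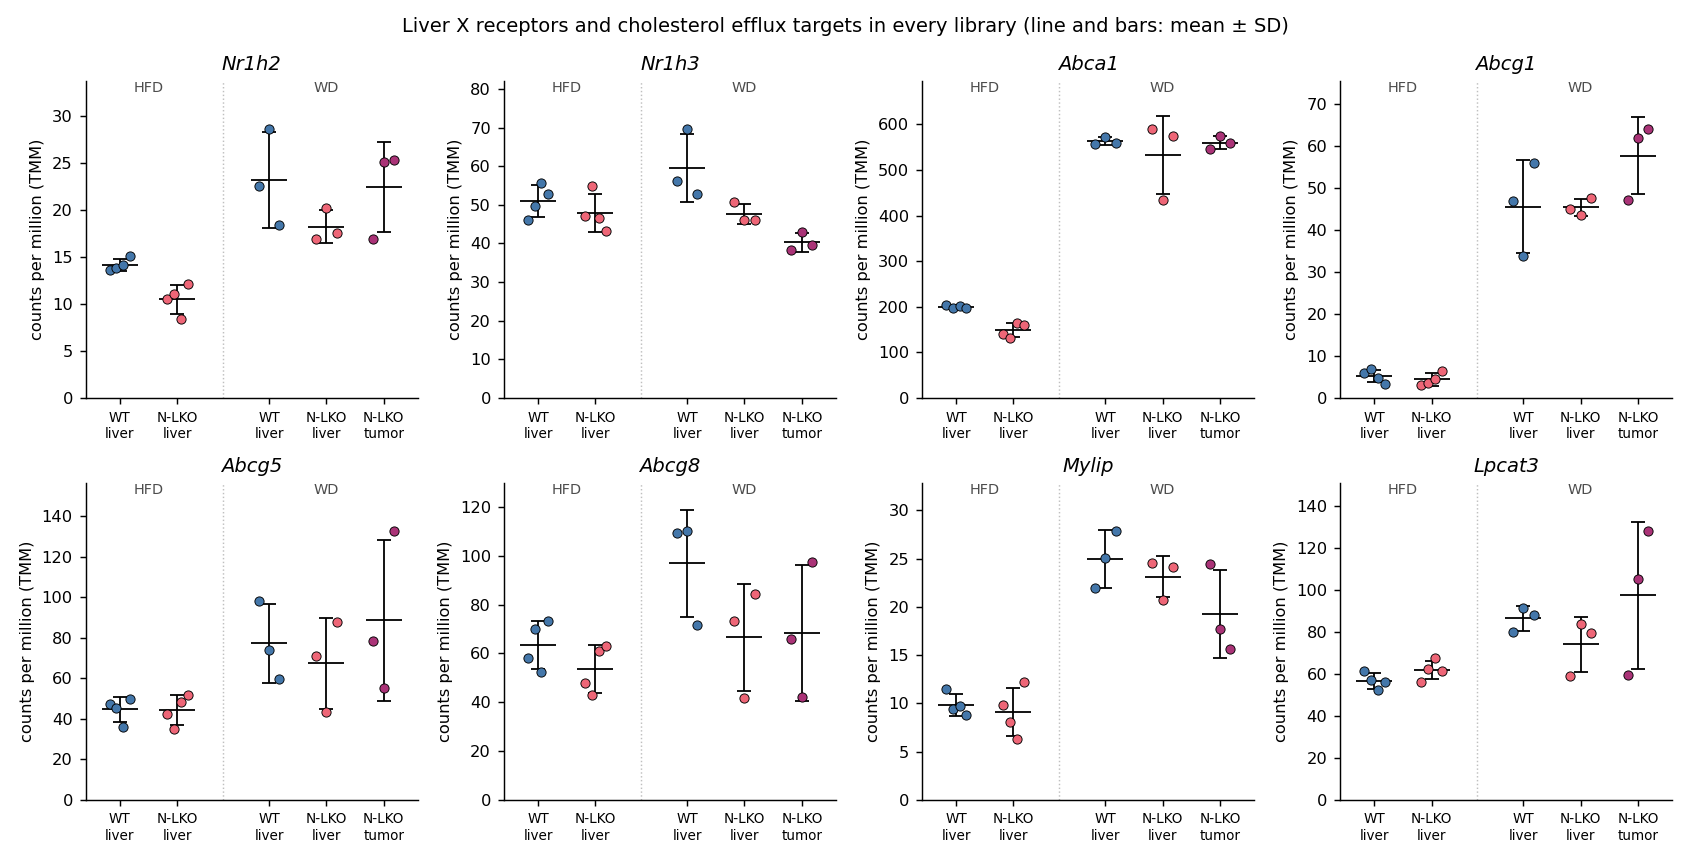
TMM-scaled CPM (linear axis from 0) of the 8 members in each library, with HFD groups left and WD groups right of the dotted line; points are libraries, lines are group means and bars are SD. The Abca1 and Nr1h2 points of N-LKO liver under HFD lie below all WT points, and under WD the Nr1h3 points of WT liver lie above those of N-LKO liver, which lie above those of tumor.

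Under HFD, the question was whether hepatic loss of NgBR altered expression of the receptors and their targets. Abca1 was lower in N-LKO liver, Nr1h2 was lower without passing the test over all genes, and the other 6 members overlapped between genotypes. By edgeR's quasi-likelihood test with Benjamini-Hochberg adjustment over all genes, 1 of 8 members passed an adjusted p of 0.05, against 4.84% of the 13460 genes tested. The groups did not overlap for 2 of 8 members, both with N-LKO below WT, against 14.8% of all genes in either direction. The median log2 fold change of the members was -0.17, and that of all genes tested was -0.01.

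Abca1 was at 203.7, 198.0, 201.6 and 197.5 CPM in the 4 WT livers and at 140.4, 131.9, 164.8 and 159.7 CPM in the 4 N-LKO livers. The WT libraries lay within a narrow band, and the highest N-LKO library was well under the lowest WT library. The log2 fold change was -0.42 (SE 0.086, 95% interval -0.61 to -0.24, edgeR adjusted p = 0.022), a level of 0.745 times WT. Genes with longer transcripts had lower fold changes in this comparison (Spearman's rho across genes -0.354, with genes not independent replicates), and the longest Abca1 transcript has 10262 bases. With an offset for transcript length and GC content the log2 fold change was -0.27 (edgeR adjusted p = 0.124), which ends the call. The call was also lost without N-LKO replicate 1, WT replicate 2 or WT replicate 4, with log2 fold changes between -0.43 and -0.40 and adjusted p between 0.0562 and 0.0662 by edgeR, while the direction held.

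Nr1h2, the receptor found in most cell types, was at 13.7, 13.8, 14.1 and 15.1 CPM in WT liver and at 10.52, 11.04, 8.38 and 12.08 CPM in N-LKO liver. The groups did not overlap, and the log2 fold change was -0.42 (95% interval -0.69 to -0.15), with an edgeR adjusted p of 0.0715. Nr1h3, the receptor enriched in liver, was at 46.1 to 55.7 CPM in WT and 43.3 to 54.9 CPM in N-LKO liver, with a log2 fold change of -0.09 (95% interval -0.30 to 0.12).

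The 3 other exporters overlapped between genotypes. Abcg8 was at 52.3 to 73.1 CPM in WT and 43.1 to 63.2 CPM in N-LKO liver (log2 fold change -0.24, 95% interval -0.55 to 0.07). Its partner Abcg5 was at 36.0 to 49.8 and 35.0 to 51.8 CPM (log2 fold change -0.01, 95% interval -0.30 to 0.28). The interval of Abcg1 was the widest of the 8, from -0.83 to 0.36 around -0.24, on 33 to 82 counts per library. Mylip (log2 fold change -0.10, 95% interval -0.51 to 0.31) and Lpcat3 (0.12, 95% interval -0.06 to 0.31) lay on either side of 0. The end of Lpcat3 overlaps exons of Emg1 on the other strand by 334 bases and its estimated counts were not whole in any of the 8 HFD libraries, so its values are less certain.

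Markers of Kupffer cells, the resident macrophages of the liver, moved with genotype under HFD. The 7 markers summed to 95.5 to 142.1 CPM in WT and 49.9 to 92.3 CPM in N-LKO liver, with no overlap, and 5 of 7 were lower by edgeR at an adjusted p under 0.05 (Cd163, Timd4, Marco, Vsig4 and Clec4f). The summed hepatocyte markers, at 69117 to 80387 CPM in WT and 61193 to 74777 CPM in N-LKO liver, overlapped. The 6 endothelial markers summed to 103.4 to 125.4 CPM in WT and 76.4 to 109.4 CPM in N-LKO liver. Recruited macrophage markers summed to 43.9 to 71.7 CPM in WT and 49.4 to 71.6 CPM in N-LKO liver. Means were higher in N-LKO liver, with overlap, for stellate and fibroblast (219.5 against 167.1 CPM), cholangiocyte (9.01 against 6.33) and lymphocyte markers (3.45 against 2.42). The part of these markers in the Abca1 and Nr1h2 differences was not tested, and fewer cells of a type and less RNA per cell cannot be told apart in bulk liver.

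**Figure D2:**
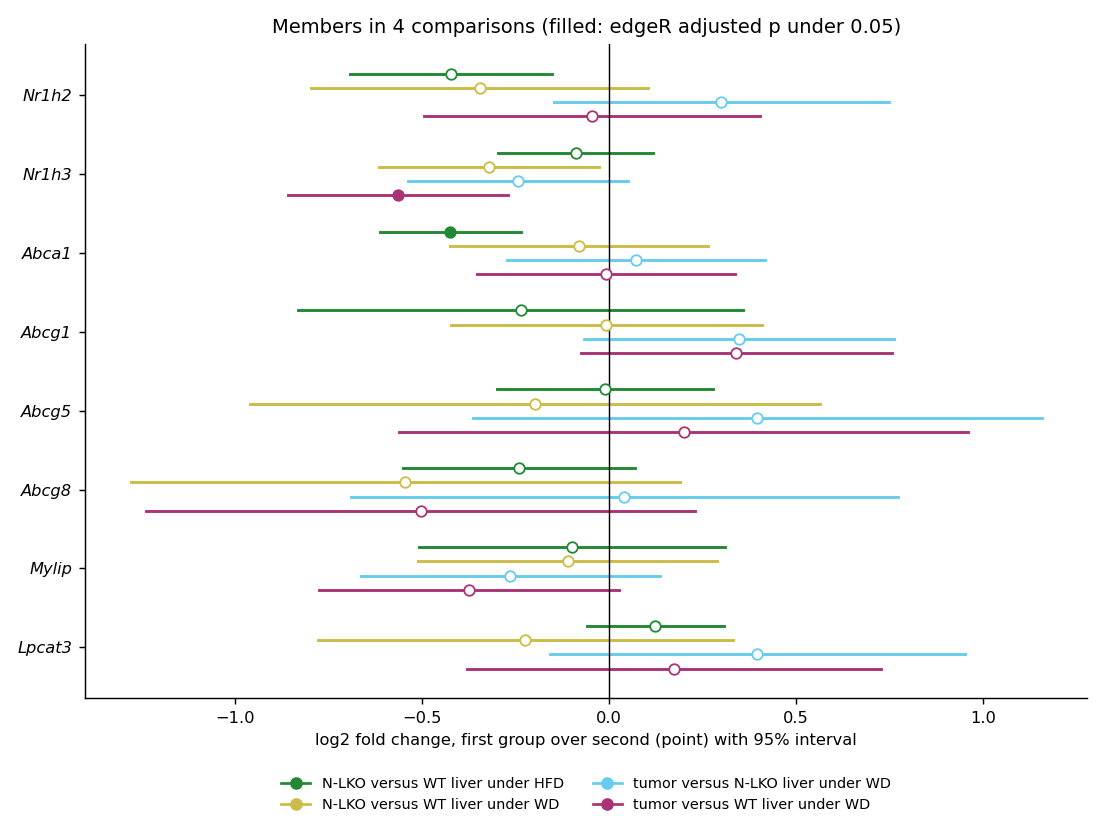
Log2 fold changes (points) with 95% intervals (lines) of the 8 members in 4 comparisons, with the first-named group over the second; filled points passed an edgeR adjusted p of 0.05. Abca1 under HFD and Nr1h3 in tumor against WT liver are the filled points.

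Under WD, expression of the members in N-LKO liver was compared with WT liver. Of the 8 members, 0 passed the edgeR test over all genes, as did 0% of the 17829 genes tested, and DESeq2 and limma-voom called 0 members too. The deleted gene Nus1, at a log2 fold change of -1.02, did not pass by edgeR either (adjusted p = 0.151). Missing this threshold therefore does not show that a member was unchanged. At an unadjusted p under 0.05, edgeR gave 1 member, Nr1h3, and 2212 genes in all. The groups did not overlap for 1 of 8 members, Nr1h3, against 27.9% of all genes. The median log2 fold change was -0.21 for the members and 0.01 for all genes tested.

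Nr1h3 was at 56.3, 69.5 and 52.8 CPM in WT liver and at 50.7, 46.1 and 46.1 CPM in N-LKO liver. All 3 N-LKO libraries were under the lowest WT library, and the log2 fold change was -0.32 (95% interval -0.61 to -0.03, edgeR unadjusted p = 0.0348, adjusted p = 0.386). It was -0.20 without WT replicate 2, the highest library, and -0.18 with the replicate block and the offset for length and GC content together. The unadjusted p was over 0.05 in both, and also with the offset alone, with upper-quartile scaling and without N-LKO replicate 2 or 3. The summed hepatocyte markers did not overlap either, at 48797 to 59751 CPM in WT and 33993 to 41416 CPM in N-LKO liver, nor did the summed Kupffer cell markers, at 276.2 to 340.3 and 195.0 to 267.2 CPM, and their part in the Nr1h3 values was not tested. Nr1h2 was at 22.6, 28.6 and 18.4 CPM in WT and at 16.9, 20.2 and 17.5 CPM in N-LKO liver. The groups overlapped, with a log2 fold change of -0.35 (95% interval -0.80 to 0.10).

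Abca1 was at 557.8, 573.2 and 558.0 CPM in WT liver and at 588.9, 433.9 and 574.8 CPM in N-LKO liver under WD. One N-LKO library, replicate 2, was under all others, and the other two were above all WT libraries. The log2 fold change was -0.08 (95% interval -0.43 to 0.26) with this library and 0.05 without it. The same library was also the lowest of the 9 WD libraries for both biliary half-transporters, with Abcg5 at 43.1 CPM and Abcg8 at 41.9 CPM. Abcg8 was at 109.3, 110.2 and 71.7 CPM in WT liver and at 73.3, 41.9 and 84.5 CPM in N-LKO liver, with a log2 fold change of -0.54 (95% interval -1.28 to 0.19). For Abcg5 the log2 fold change was -0.20 (95% interval -0.96 to 0.56), for Abcg1 -0.01 (-0.42 to 0.41), for Mylip -0.11 (-0.51 to 0.29) and for Lpcat3 -0.22 (-0.78 to 0.33). All 5 intervals include 0, and those of Abcg5 and Abcg8 are the widest of the 8 members.

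The 14 livers of both diets were fitted together to ask if the effect of genotype was the same under each (an interaction test). No member passed, with 0 of 8 by edgeR, DESeq2 and limma-voom alike, against 1.62% of the 15850 genes tested by edgeR. Abca1 was the member under an unadjusted p of 0.05. Its genotype effect was higher under WD than under HFD by 0.37 on the log2 scale (95% interval 0.04 to 0.69, edgeR adjusted p = 0.199), and by 0.12 with the offset for length and GC content. The interaction of Lpcat3 was -0.32 (95% interval -0.66 to 0.01). A lower Abca1 under HFD alone was therefore not shown by a test of the difference.

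Tumors of N-LKO mice were compared with N-LKO liver and with WT liver, both under WD. The 2 comparisons share the tumor libraries. Against N-LKO liver, 0 of 8 members passed by edgeR, DESeq2 or limma-voom, against 0.499% of 17829 genes by edgeR, and 0 had an unadjusted p under 0.05. Against WT liver, 1 of 8 members passed, Nr1h3, against 14.9% of all genes. The groups did not overlap for Nr1h3 alone in either comparison, against 23.1% and 34.1% of all genes. The median log2 fold change of the members was 0.19 against N-LKO liver and -0.03 against WT liver, with medians over all genes of 0.02 and 0.04.

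Nr1h3 was at 38.2, 42.9 and 39.6 CPM in tumor, under all 6 WD livers. The level was 0.676 times that of WT liver (log2 fold change -0.56, SE 0.132, 95% interval -0.86 to -0.27, edgeR adjusted p = 0.0228). Against N-LKO liver the log2 fold change was -0.24 (95% interval -0.54 to 0.05, edgeR adjusted p = 0.357). The call against WT liver was lost without WT replicate 1 (adjusted p = 0.0512 by edgeR), without WT replicate 2, the highest library (log2 fold change -0.44, adjusted p = 0.0805 by edgeR), and when only the 2 groups were fitted (adjusted p = 0.069 by edgeR). Gm13783, a transcript on the same strand, overlaps 6873 bases of Nr1h3 including exons, so some of its reads could belong to either. Of the 7 hepatocyte markers, 3 passed by edgeR between tumor and WT liver, all lower in tumor. Hnf4a, a hepatocyte nuclear receptor, had a log2 fold change of -0.75 against WT liver. It was at 497.1 to 570.2 CPM in tumor, 550.7 to 629.5 in N-LKO liver and 750.7 to 1124 in WT liver. Alb was at 28721 to 49067 CPM in tumor (median 29245) and 32227 to 41894 CPM in WT liver. Its means of 35677 and 36362 CPM were near each other because of the highest tumor library. Cyp2e1 was at 129.7 to 3254 CPM in tumor and 7455 to 10964 CPM in WT liver, while Cps1 overlapped, at 1452 to 3113 and 2169 to 4514 CPM. Of the 7 Kupffer cell markers, 3 passed by edgeR, all lower in tumor than in WT liver: Cd163, Marco and Timd4. Clec4f (8.186 to 70.48 CPM in tumor, 107.5 to 130.6 in WT liver) was lower without overlap but did not pass. The same held for Vsig4 (4.849 to 29.36 and 35.74 to 52.01 CPM). The complement genes C1qa (57.34 CPM in tumor, 54.62 in WT liver) and C1qb (81.29 and 67.55 CPM) did not pass and had higher means in tumor. Summed Kupffer cell markers were at 107.8 to 238.3 CPM in tumor, 195.0 to 267.2 in N-LKO liver and 276.2 to 340.3 in WT liver. Summed hepatocyte markers ran from 33126 to 56476 CPM in tumor and from 48797 to 59751 CPM in WT liver. Summed cholangiocyte markers were at 29.41 to 63.12 CPM in tumor, 14.38 to 18.51 in N-LKO liver and 7.528 to 9.185 in WT liver, and summed lymphocyte markers at 4.327 to 7.25, 3.475 to 5.691 and 2.035 to 3.817 CPM. The part of all these markers in the Nr1h3 difference was not tested.

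**Figure D3:**
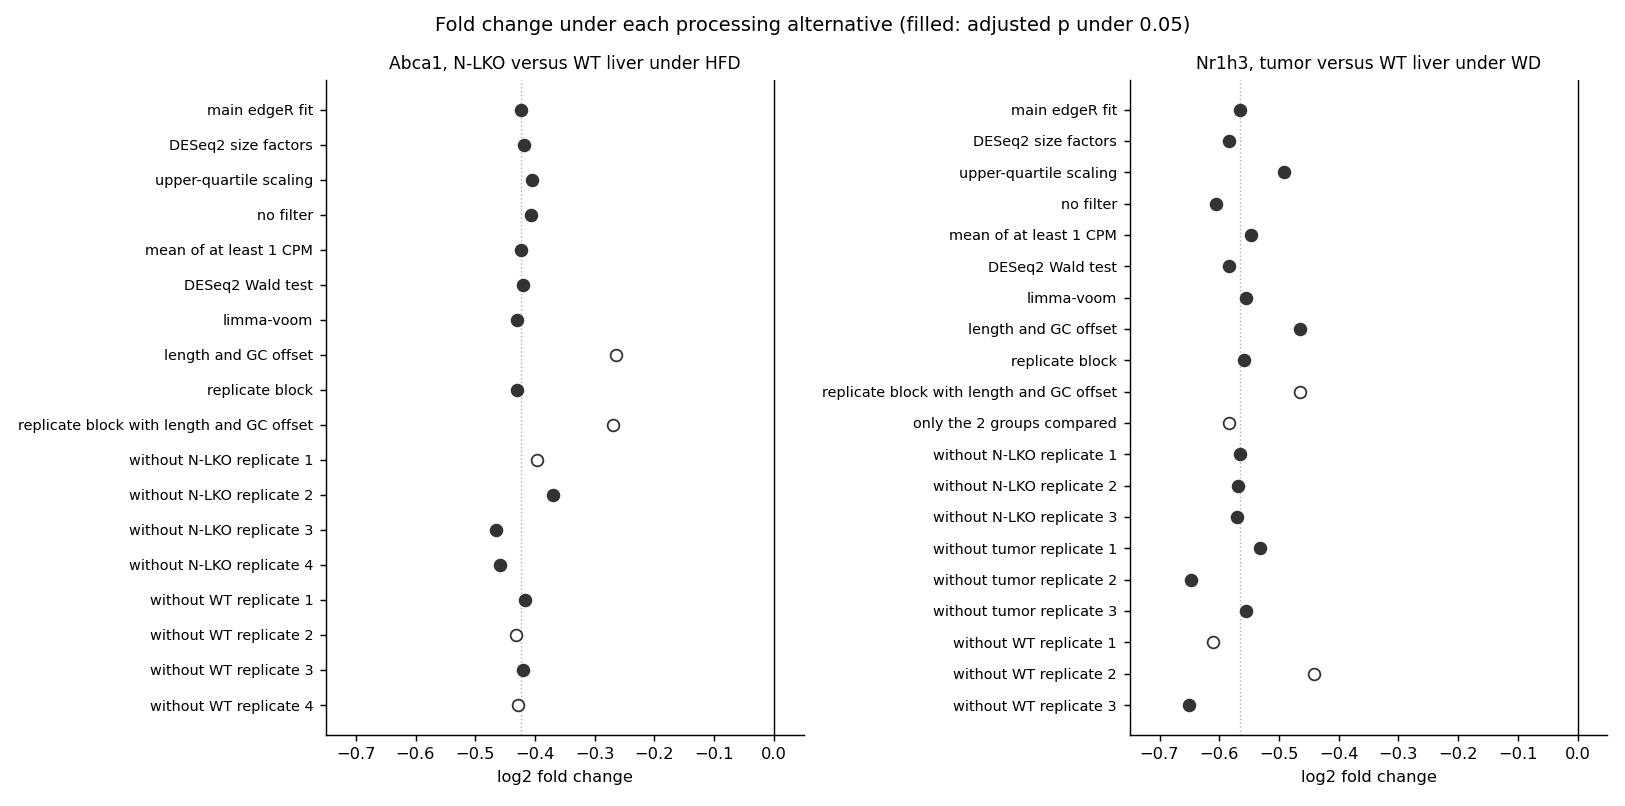
Log2 fold change of Abca1 (N-LKO over WT liver, HFD) and of Nr1h3 (tumor over WT liver, WD) in the main edgeR fit and under each alternative, with the dotted line at the main value; filled points have an adjusted p under 0.05. Every point is below 0, and the open points mark the settings in which the call was lost.

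Nr1h2 was at 16.9, 25.1 and 25.3 CPM in tumor and overlapped both liver groups. Its log2 fold change was -0.05 against WT liver (95% interval -0.49 to 0.40) and 0.30 against N-LKO liver (95% interval -0.15 to 0.75). The ratio of the 2 receptors, described further on, did not show that they differed in their change. Abca1 was within 545.9 to 574.0 CPM in the 3 tumors, a log2 fold change of -0.01 against WT liver with a 95% interval of -0.35 to 0.34. Abcg1, which is abundant in macrophages, was at 47.2, 62.1 and 64.0 CPM in tumor. Its log2 fold change was 0.35 against N-LKO liver (95% interval -0.07 to 0.76) and 0.34 against WT liver (95% interval -0.08 to 0.76), and the groups overlapped in both. The 8 markers of recruited macrophages summed to 356.8 to 504.2 CPM in tumor, 324.7 to 382.0 in N-LKO liver and 180.7 to 362.6 in WT liver, and their part in the Abcg1 values was not tested.

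The tumors differed most among themselves in Abcg5, Abcg8 and Lpcat3. Tumor replicate 3 was the highest of the 9 WD libraries for Abcg5, at 132.6 CPM, and for Lpcat3, at 127.9 CPM. Tumor replicate 2 had 55.02 CPM of Abcg5 and 42.03 CPM of Abcg8, and tumor replicate 1 had 59.2 CPM of Lpcat3, near the lowest N-LKO liver. Without tumor replicate 1, Lpcat3 passed against N-LKO liver (log2 fold change 0.65, edgeR adjusted p = 0.0401) and Mylip against WT liver (log2 fold change -0.58, edgeR adjusted p = 0.0259). Without tumor replicate 3, Lpcat3 was at 0.15 (edgeR adjusted p = 0.798) and Mylip at -0.25 (edgeR adjusted p = 0.369). With all tumors neither passed. Lpcat3 was 0.40 higher on the log2 scale than in N-LKO liver (95% interval -0.16 to 0.95), and Mylip, at 24.4, 17.8 and 15.6 CPM, had a log2 fold change of -0.37 against WT liver (95% interval -0.78 to 0.03).

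Ratios of 2 counts within a library do not depend on scaling between libraries, and 8 such comparisons were made with 2-sided exact permutation tests. The Abcg8 to Abcg5 ratio compares the subunits of one transporter. Under WD its log2 value was 0.15, 0.58 and 0.27 in WT liver, 0.05, -0.04 and -0.06 in N-LKO liver, and -0.25, -0.39 and -0.44 in tumor. The 3 groups followed each other without overlap. The mean was 0.33 ± 0.22 (SD, n = 3) in WT liver, -0.02 ± 0.06 in N-LKO liver and -0.36 ± 0.10 in tumor. Each of the 3 differences had an exact permutation p of 0.1, the smallest that 3 against 3 libraries can give, and an adjusted p of 0.114. Without WT replicate 2, the difference between N-LKO and WT liver was -0.23 in place of -0.35. Under HFD the log2 ratio was 0.30, 0.63, 0.54 and 0.55 in WT liver and 0.17, 0.30, 0.34 and 0.29 in N-LKO liver, a difference of -0.23 (exact permutation p = 0.0571, adjusted p = 0.114). WT replicate 1 was the one WT library within the N-LKO range, and without it the difference was -0.30. With that library out the groups no longer overlap, which fixes the exact permutation p at the smallest possible (0.0286, unadjusted), so it adds no evidence. Leaving out any other library gave exact permutation p from 0.0571 to 0.0857. With the correction for length and GC content, added after the data were seen, the differences were -0.35, -0.37 and -0.72 under WD (N-LKO against WT liver, tumor against N-LKO liver, tumor against WT liver) and -0.15 under HFD. The annotated spans of Abcg5 and Abcg8 overlap by 6710 bases on opposite strands, exons included, and whether the counting used strand was not given in the sources used here, so reads may have passed from one gene to the other.

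The Nr1h3 to Nr1h2 log2 ratio was 1.17, 0.77 and 0.65 in tumor, under all 6 WD livers, whose values ran from 1.19 to 1.58. The difference was -0.52 against N-LKO liver and -0.51 against WT liver (exact permutation p = 0.1 for each, the smallest possible, adjusted p = 0.114). Under HFD the log2 ratio was 1.75 to 1.98 in WT and 1.84 to 2.47 in N-LKO liver, a difference of 0.35 (exact permutation p = 0.0857, adjusted p = 0.114). Under WD, N-LKO and WT liver overlapped, at 1.19 to 1.58 and 1.28 to 1.52, with a difference of 0.01 (exact permutation p = 1).

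**Figure D4:**
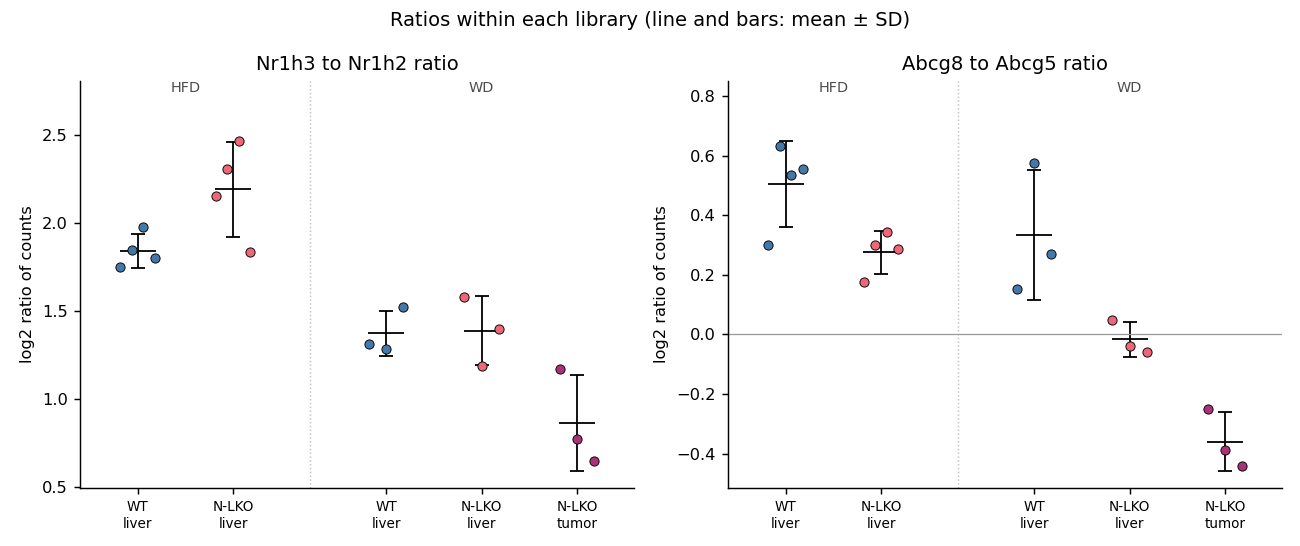
Log2 ratio of counts of Nr1h3 to Nr1h2 (left) and of Abcg8 to Abcg5 (right) in each library, with HFD groups left and WD groups right of the dotted line; points are libraries, lines are group means and bars are SD. The Abcg8 to Abcg5 ratio under WD is highest in WT liver (0.15 to 0.58), then N-LKO liver (-0.06 to 0.05), then tumor (-0.44 to -0.25), without overlap.

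Likeness of expression profiles was measured as the root mean square difference in log2 CPM over the 17 libraries, with each table centred on its own mean, among 13415 other genes. It is a description over libraries that share groups and depth. Nearest to Abca1 were Pdik1l (0.109) and Rab7-ps1 (0.112), and nearest to Nr1h3 were Tmem183a (0.0637) and Mbd3 (0.0705). Abcg8 ranked 17 in likeness to Abcg5 and Abcg5 ranked 28 in likeness to Abcg8, at 0.245. Nr1h3 ranked 2145 for Nr1h2, and Nr1h2 ranked 4972 for Nr1h3, at 0.273. The root mean square deviation from the table means was 0.263 for Nr1h2 itself and 0.203 for Nr1h3. A gene with a flat profile would thus be nearer to either receptor than the other receptor was.

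Another 72 genes around these members were taken in 9 lists: receptor partners and coregulators, enzymes that make or clear oxysterols, lipogenic targets, lipid transport and macrophage targets, HDL acceptors, canalicular transporters, Mylip substrates, phospholipid acyltransferases and intracellular sterol handling. Under HFD, 64 were tested and 7 passed the edgeR test, 3 higher and 4 lower in N-LKO liver, or 10.9% against 4.84% of all genes. The lists were chosen with earlier results of these data known, so the 2 shares are no test of enrichment. Among the 15 partners and coregulators, 3 fell: the coactivators Ep300 (log2 fold change -0.51, SE 0.098) and Ncoa2 (-0.36, SE 0.077) and the corepressor Nrip1 (-0.45, SE 0.098). All 3 lost the call with the offset for length and GC content, at log2 fold changes of -0.36, -0.22 and -0.29. With single libraries left out, Ep300 kept the call in 5 of 8 fits, and Ncoa2 and Nrip1 in 3 of 8 each. Of 5 oxysterol enzymes tested, 1 fell, Cyp7b1, the oxysterol hydroxylase that clears sterol ligands (-1.15, SE 0.215), from 163.3 to 363.9 CPM in WT to 92.8 to 130.5 CPM in N-LKO liver. Of 11 lipid transport targets, 2 rose: Apoc2, the cofactor of lipoprotein lipase (0.82, SE 0.123), and the phospholipid transfer protein Pltp (0.60, SE 0.136). Npc2, which hands cholesterol out of the lysosome, was the 1 of 7 genes of intracellular sterol handling that rose (0.37, SE 0.086). With the offset, Pltp (0.53) and Npc2 (0.37) missed the threshold at nearly the same fold changes, and Apoc2 and Cyp7b1 kept the call. Leaving out single libraries, Pltp and Npc2 kept the call in 2 of 8 fits each, Cyp7b1 in 7 of 8 and Apoc2 in 8 of 8. None of the 9 lipogenic targets, 8 HDL genes, 4 canalicular transporters, 2 Mylip substrates or 3 acyltransferases tested passed by edgeR.

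Under WD, 0 of the 67 genes tested passed between N-LKO and WT liver by edgeR. Between tumor and N-LKO liver 1 passed, the acyltransferase Lpcat4, which was at 3.27 to 5.37 CPM in tumor and 0.638 to 0.949 CPM in N-LKO liver (log2 fold change 2.52, SE 0.381). This call held in 3 of 9 fits with a library left out (log2 fold changes 2.38 to 2.71, edgeR adjusted p up to 0.188), being lost without any 1 N-LKO library, tumor replicate 2 or 3, or WT replicate 3. It was also lost with the replicate block (edgeR adjusted p = 0.082). Against WT liver, 17 of 67 passed, 6 higher and 11 lower in tumor, or 25.4% against 14.9% of all genes. Here too the choice of the lists keeps the shares from being a test of enrichment. The median over the 67 genes was -0.09.

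Rxra, the receptor partner that is most abundant in liver, was the 1 of 15 partners and coregulators that changed between tumor and WT liver. It was at 226.3 to 271.7 CPM in tumor, 319.0 to 402.4 in N-LKO liver and 493.9 to 752.2 in WT liver, and fell by 1.20 on the log2 scale against WT (SE 0.196, edgeR adjusted p = 0.00895). Of 5 oxysterol enzymes, 2 fell against WT liver, Cyp46a1 (log2 fold change -2.44, SE 0.413) and Cyp7b1 (-1.77, SE 0.461). Cyp46a1 was low in both groups, at 0.469 to 1.20 CPM in tumor and 3.57 to 7.16 CPM in WT liver. Of 9 lipogenic targets, 4 changed and in both directions. The fatty acid synthesis genes Fasn (1.92, SE 0.432) and Acaca (1.16, SE 0.201) were higher, and the desaturases Fads2 (-1.09, SE 0.213) and Fads1 were lower.

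Of 11 lipid transport and macrophage targets, Apoc2 (log2 fold change 1.66, SE 0.363) and Lpl were higher in tumor than in WT liver, and Apoe (-0.84, SE 0.203), the macrophage protein Cd5l (-1.36, SE 0.336) and Pltp were lower. Of 8 HDL genes, 3 were lower: Lcat, which esterifies the cholesterol of HDL (-1.01, SE 0.222), Apoa2 (-0.81, SE 0.222) and the hepatic lipase Lipc (-1.27, SE 0.376). Of 5 phospholipid acyltransferases tested, Lpcat4 (3.28, SE 0.418) and Mboat1 (2.88, SE 0.672) were higher. Mboat1 was at 0 to 0.358 CPM in WT liver, so its fold rests on few counts. None of the 4 canalicular transporters, 3 Mylip substrates or 7 genes of intracellular sterol handling tested passed by edgeR. Of the genes given with values, Cyp7b1, Fads2, Fasn, Apoc2, Apoe, Cd5l, Lcat, Apoa2, Lipc and Mboat1 missed the threshold when only the 2 groups were fitted, with the direction kept. With single libraries left out, Rxra, Cyp46a1, Acaca, Fads2 and Lpcat4 kept the call in 9 of 9 fits, Lcat in 8, Fasn and Apoc2 in 7, Apoe and Mboat1 in 6, Cyp7b1 and Cd5l in 5, Apoa2 in 3 and Lipc in 2. Cyp7b1 was at -1.08 without WT replicate 2.

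**Figure D5:**
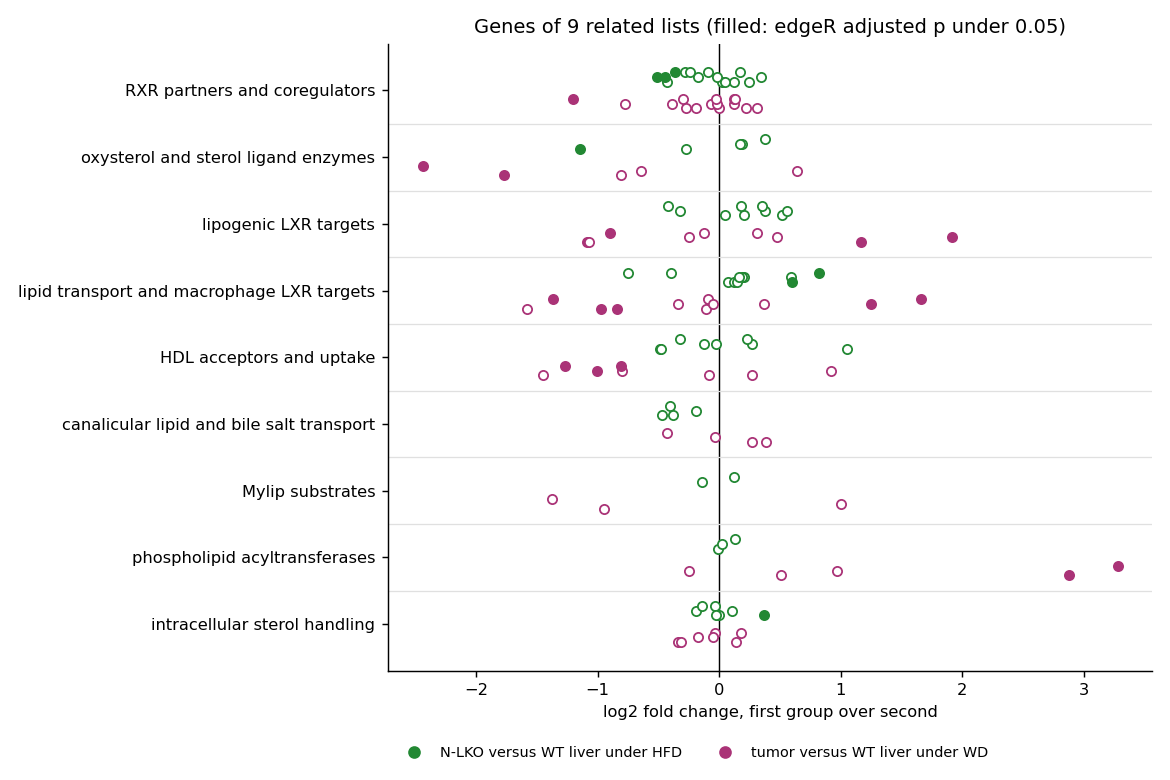
Log2 fold changes of the genes of 9 related lists (rows, 64 and 67 genes tested) in N-LKO against WT liver under HFD (green) and in tumor against WT liver under WD (purple); filled points passed an edgeR adjusted p of 0.05. Filled points number 7 under HFD and 17 in tumor, and lie on both sides of 0.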

How the data were processed

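The authors removed ribosomal RNA, made libraries with a TruSeq kit that the labels name as a small RNA kit, and sequenced single-end reads. The study's methods name TopHat2 as aligner, and the submitters' processing notes name STAR, Partek and mm9. Member starts matched GRCm38 (GENCODE M21), with the stop 1 base past the annotated end, so positions are from that annotation. The authors deposited unscaled estimated counts for each gene, in which the authors' expectation-maximization step divides shared reads; 69.8% (HFD) and 66.6% (WD) were whole. Annotation release and strand use were not given in the sources used here.

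Estimated counts were rounded and tested in edgeR 4.0.16 (R 4.3.3; TMM, filterByExpr, quasi-likelihood F test, Benjamini-Hochberg over all genes, threshold 0.05), HFD livers alone and the 3 WD groups together; a code check on simulated counts came first. Standard errors are approximate, taken as the fold change divided by the root of the F statistic. The study's own test needs reads and was not run. Alternatives were DESeq2 1.42.0, limma 3.58.1 (voom), other scalings and filters, an offset for transcript length and GC content (splines with 5 degrees of freedom), a replicate block and leaving out each library. Count ratios used a pseudocount of 0.5 and log2 CPM a pseudocount of 2. Columns without a sample numbered 0. The labels call replicates biological; same-numbered libraries did not deviate together, so numbers were not taken to pair samples.

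Members, lists and tests were chosen with earlier results of these data known. Named beside the members are list genes with an adjusted p under 0.05, at most 3 per list with values, and the 2 genes most like each member that was called. Promoter sequences are from RefSeq (GRCm38.p6).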

Additional observations from a re-analysis of the deposited data

Results flagged for a closer look

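No member had a genotype effect that differed between diets by the interaction test. Of the 64 related genes in that test, 2 did by edgeR. The coactivator Ep300 was lower in N-LKO than in WT liver under HFD (log2 fold change -0.51) and at 0.05 under WD, an interaction of 0.58 (edgeR adjusted p = 0.0404). The HDL protein Apoa2 was at 0.23 under HFD and -0.53 under WD, an interaction of -0.74 (edgeR adjusted p = 0.0455). With the offset for length and GC content the interactions were 0.41 and -0.39, with edgeR adjusted p of 0.152 and 0.25. Both calls also ended at nearly the same size with the replicate block (0.58 and -0.75, edgeR adjusted p = 0.0826 and 0.0991) and with no filter on low counts (edgeR adjusted p = 0.0523 for each). Leaving out single libraries kept the call for each gene in 1 of 14 fits.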

How the results depend on the processing

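Of 384 log2 fold changes of members under alternatives other than leaving out a library, 364 kept their direction and side of the threshold, 16 changed sign and 4 lost the threshold. Of 392 with a library left out, 354 kept both, 31 changed sign, 5 lost the threshold and 2 gained it. No sign change touched a called value. The number of members called went to 0 with the length and GC offset under HFD, alone or with the replicate block, and to 0 in tumor against WT liver when only the 2 groups compared were fitted or with the replicate block and offset together. For Abca1 under HFD and Nr1h3 in tumor against WT liver, the replicate block with the offset gave -0.27 and -0.47, with edgeR adjusted p of 0.119 and 0.0523. With one library left out, 0 to 1 members were called under HFD, 0 to 1 in tumor against N-LKO liver and 0 to 2 in tumor against WT liver.

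The values that changed sign were these. Under HFD, Abcg5 was 0.007 with upper-quartile scaling and 0.005 with no filter. For N-LKO against WT liver under WD, Abcg1 was 0.043 with upper-quartile scaling, 0.005 with a mean of at least 1 CPM, 0.02 by limma-voom, 0.012 with the offset, 0.01 with the replicate block and 0.031 with the replicate block and offset. In tumor against N-LKO liver, Abcg8 was -0.001 with the replicate block and offset. In tumor against WT liver, Nr1h2 was 0.029 with upper-quartile scaling, 0.098 with the offset and 0.104 with the replicate block and offset, and Abca1 was 0.061 with upper-quartile scaling and 0.01 with a mean of at least 1 CPM. The interaction of Nr1h3 was 0.00036 with the offset and 0.003 with the replicate block and offset. The Nr1h3 to Nr1h2 ratio of N-LKO against WT liver under WD was -0.028 with the length and GC correction, which was chosen after seeing the data. The cause was not tested.

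With one library left out, log2 fold changes that changed sign ranged, under HFD, from -0.099 to 0.086 (Abcg5) and -0.275 to 0.042 (Mylip). For N-LKO against WT liver under WD the ranges were -0.159 to 0.046 (Abca1), -0.184 to 0.164 (Abcg1) and -0.44 to 0.039 (Abcg5). In tumor against N-LKO liver they were -0.06 to 0.15 (Abca1), -0.016 to 0.643 (Abcg5) and -0.305 to 0.291 (Abcg8). In tumor against WT liver they were -0.195 to 0.13 (Nr1h2), -0.061 to 0.006 (Abca1), -0.215 to 0.419 (Abcg5) and -0.075 to 0.428 (Lpcat3). For the interaction they were -0.035 to 0.256 (Nr1h2), -0.405 to 0.076 (Abcg5) and -0.13 to 0.183 (Mylip). The Nr1h3 to Nr1h2 ratio ranged from 0.257 to 0.467 under HFD and -0.081 to 0.115 for N-LKO against WT liver under WD, and the Abcg8 to Abcg5 ratio ranged from -0.298 to -0.187 under HFD and, under WD, from -0.44 to -0.228 for N-LKO against WT liver, -0.398 to -0.302 for tumor against N-LKO liver and -0.783 to -0.571 for tumor against WT liver.

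Over all genes, the count of calls under HFD was 652 by edgeR, 1000 by DESeq2, 284 with the offset and 172 with the replicate block and offset. For N-LKO against WT liver under WD it was 0 by edgeR, 100 by DESeq2 and 6 with only the 2 groups fitted. In tumor against N-LKO liver it was 89 by edgeR, 1021 by DESeq2, 18 by limma-voom, 58 with a mean of at least 1 CPM, 36 with the replicate block, 40 with the block and offset, and 29 with only the 2 groups fitted. In tumor against WT liver it was 2653 and 705 with only the 2 groups fitted. Upper-quartile scaling split those calls into 1666 higher and 939 lower, against 1440 and 1213, and put the median of all genes at 0.11. The interaction gave 257, 981 by DESeq2, 32 with the offset and 0 with the replicate block in edgeR (3122 at an unadjusted p under 0.05). The replicate block alone changed no call of a member, but ended those of Nrip1 and Npc2 under HFD, Lpcat4 in tumor against N-LKO liver, Apoe in tumor against WT liver and the Ep300 and Apoa2 interactions. Same-numbered libraries did not deviate together (correlations from -0.121 to 0.108), so the numbers were not read as a pairing. Depth limits Abcg1 under HFD most, at 33 to 82 counts per library.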
